A study of Homo sapiens with 2 samples.

Results

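The genes described here are THAP11, its partner HCFC1, their known target MMACHC, and 7 further genes of the THAP family: THAP1, THAP2, THAP3, THAP4, THAP7, THAP8 and THAP10. They were taken by gene name, 10 of the 60448 genes listed. The set was chosen by the ratio of THAP11 between the 2 libraries, which was among the lowest, so the values of THAP11 are given as a description. The 2 libraries are polyadenylated RNA of HepG2, a human hepatoblastoma-derived cell line. In the SPRTN siRNA library the cells had received an siRNA against SPRTN, a protease for proteins that are crosslinked to DNA, and in the control library a negative control siRNA. Both siRNAs were used at 40 nM with 24 h in the transfection mix, and RNA was isolated 72 h after the start. Each group has 1 library, so no difference below has a replicate check, and every interval covers counting error only.

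THAP proteins share a zinc-coordinating domain that binds DNA, related to the DNA-binding domain of a fruit fly transposase. THAP11, called Ronin in the mouse, binds HCF-1, the product of HCFC1. HCF-1 is a large protein without a DNA-binding domain of its own that links promoter-bound factors to enzymes that modify chromatin. With the zinc finger protein ZNF143, THAP11 and HCF-1 occupy promoters of many housekeeping genes. MMACHC encodes the enzyme that trims incoming cobalamin, the vitamin that methionine synthase and methylmalonyl-CoA mutase need. Inherited variants of HCFC1, THAP11 or ZNF143 are known to lower MMACHC and cause a disorder of cobalamin use.

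The SPRTN siRNA library held about 67100000 reads assigned to genes and the control about 96400000. SPRTN itself stood at 2.07 FPKM (a level corrected for gene length and library depth) in the SPRTN siRNA library, against 7.81 FPKM in the control. All 10 hepatocyte markers were measured, with a summed level of 44446 and 34079 FPKM in the SPRTN siRNA and control libraries. Of 5 markers each, endothelial genes summed to 7.11 and 4.91 FPKM, blood genes to 6.07 and 5.51 FPKM, nearly all of it CD4, and fibroblast genes to 1.08 and 1.82 FPKM. PTPRC, HBB, COL3A1 and DCN were listed at 0 in both. A mean level of 1 FPKM or more was found for 13203 genes, called measured here. Past 2-fold on the log2(FPKM + 1) scale, 104 of them were lower after SPRTN siRNA (0.788%) and 199 higher (1.51%), together 2.29%.

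An siRNA guide can pair through its seed, positions 2 to 8, with transcripts other than its target. The guide and its sites are shown because the target SPRTN, THAP11 and the methionine synthase gene MTR hold them in their 3' UTRs. The guide is given 5′ to 3′ with the seed in capitals. In the sites, written as DNA on the transcript's strand, the capitals are the 7 bases that pair with the seed and, where it is an A, the next base. Coordinates are those of the 7 bases in GRCh38.
siRNA guide strand: uUAACCAGaacuuccugac
SPRTN, chr1:231353433-231353439, plus strand: gtcaggaagttCTGGTTAA
THAP11 8-base site, chr16:67843754-67843760, plus strand: tgttgcagattCTGGTTAA
THAP11 7-base site, chr16:67844101-67844107, plus strand: tttgtttgctaCTGGTTAc
MTR 8-base site, chr1:236901973-236901979, plus strand: ctacgcctgccCTGGTTAA

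The SPRTN site pairs with all 19 bases of the guide. In THAP11 the 8-base site pairs at 12 of the 19 positions and the 7-base site at 9, read base by base with no gaps. Outside guide positions 1 to 8, 4 of 11 positions of the first THAP11 site and 2 of 11 of the second pair.

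THAP11 (ENSG00000168286) was the gene of this group that differed most. Its place is chromosome 16, 67842082 to 67844195, plus strand, and it has 1 annotated transcript with 1 exon. Its level was 5.30 FPKM in the SPRTN siRNA library (95% interval 4.92 to 5.69), against 19.1 FPKM in the control (18.5 to 19.7), from 751 and 3896 reads. The remaining level was 27.7% of that in the control (25.60 to 29.97%), or 3.61-fold lower (3.34 to 3.91). The log2(FPKM + 1) ratio was -1.68, rank 11 from the lowest among all 13203 measured genes. Among 4378 genes whose mean FPKM lay within 2-fold of that of THAP11, it held rank 3 from the lowest. SPRTN, the intended target, was at 26.5% of its control level (23.1 to 30.4%), an interval that overlaps that of THAP11.

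**Figure D1:**
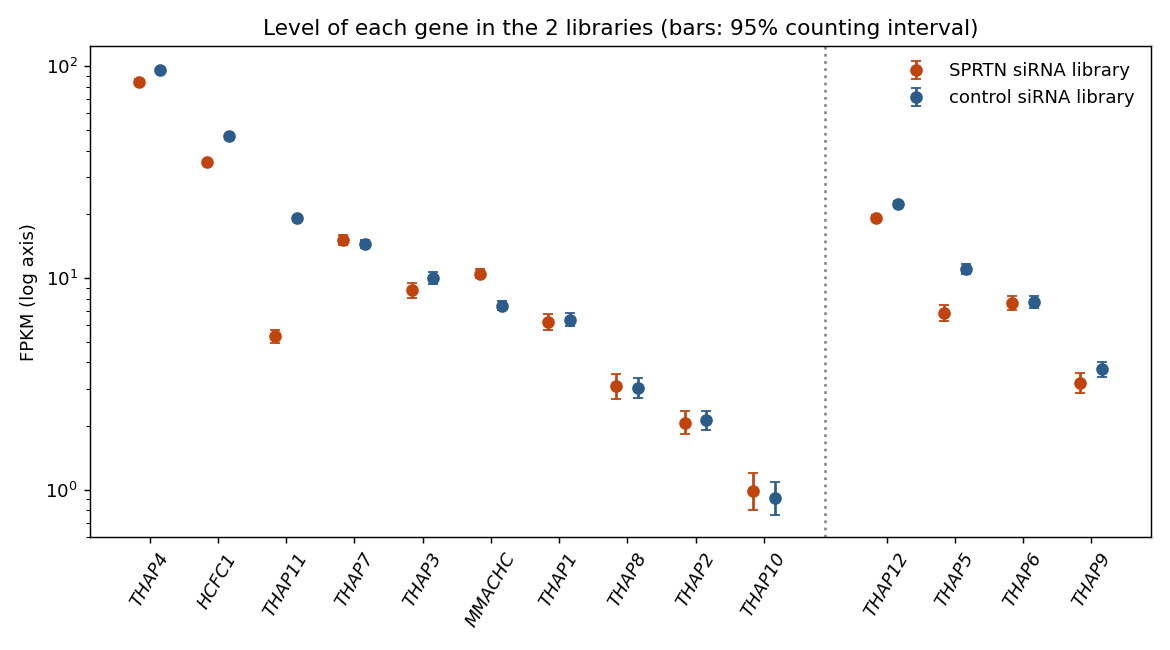
FPKM (log axis) of each gene in the SPRTN siRNA library (left point of each pair) and the control siRNA library (right point), with exact Poisson 95% intervals; the 4 other THAP genes stand right of the dotted line. THAP11 stands at 5.30 FPKM in the SPRTN siRNA library, against 19.1 FPKM in the control, while the points of THAP1, THAP2, THAP8 and THAP10 lie close together.

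Both THAP11 sites lie in its 696-base 3' UTR, the 8-base site from base 255 and the 7-base site from base 602 after the stop codon. THAP11 was the only one of the 10 genes with a 7-base site, and none of the 4 other THAP genes had one, against 1165 of 11134 measured genes with a 3' UTR to search. Of the 122 measured genes with at least 2 such sites, THAP11 had the lowest ratio, and among the 384 with an 8-base site it held rank 5 from the lowest, next to SPRTN at rank 6. THAP11 was chosen for its low ratio, so its ranks, here and above, are a description only. SPRTN is the intended target, with a site that pairs with all 19 guide bases, in the 3' UTR of 1 of its 4 coding transcripts. The part of these sites in the THAP11 value was not tested. The annotated exons of CENPT, a kinetochore gene on the opposite strand, cover 380 bases of THAP11 (18.0% of its exonic bases), inside the coding part. The use of strand is not given, so reads there cannot be told apart. CENPT itself was at 40.6 FPKM in the SPRTN siRNA library and 34.8 FPKM in the control.

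**Figure D2:**
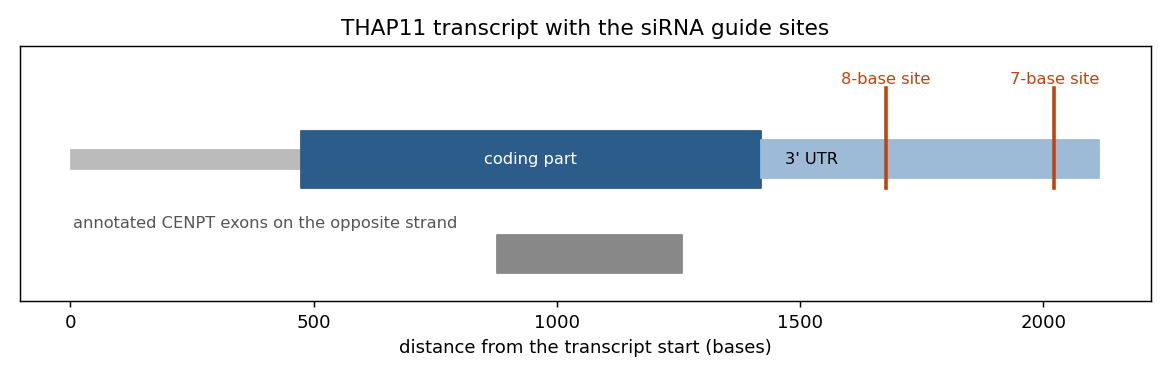
Map of the 2114-base THAP11 transcript in bases from its start: the coding part from base 474 to 1418 with the stop codon, the 3' UTR after it, the guide sites at 1673 and 2020, and the CENPT exon on the opposite strand from 877 to 1256. Both sites lie in the 3' UTR and outside the stretch shared with CENPT.

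Of the other annotated neighbours of THAP11, 1 was abundant and 1 nearly silent. NUTF2, a nuclear transport factor gene that begins 2536 bases after THAP11, was at 106 FPKM in the SPRTN siRNA library and 101 FPKM in the control, a ratio of 1.05 (1.02 to 1.08). On the other side TSNAXIP1 was at 0.13 and 0.37 FPKM in the SPRTN siRNA and control libraries, from 13 and 52 reads. Among the protein-coding genes closest to THAP11 by distance of log2(FPKM + 1) over the 2 libraries were DCP2, TRAK2, FAM98B and CYP2S1. This choice sets their ratios low, so their sites are given as a description. DCP2 encodes the enzyme that removes the cap of mRNAs and TRAK2 an adaptor for moving mitochondria. DCP2 and TRAK2 hold the 8-base site, while FAM98B and CYP2S1 have no CTGGTTA. FAM98B does hold TGGTTAA, the last 7 bases of the 8-base site, at 2 places, and CYP2S1 has 0 of these.

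HCFC1 (ENSG00000172534, X chromosome, 153947553 to 153971807, minus strand) was moderately lower. It stood at 35.3 FPKM in the SPRTN siRNA library (34.7 to 35.9), against 46.6 FPKM in the control (46.0 to 47.2), from about 12583 and 23882 reads. The plain ratio was 0.76 (0.74 to 0.77) and the log2(FPKM + 1) ratio -0.39, short of 2-fold. The counting interval is narrow because the gene is deeply covered, and such intervals lay wholly below equality for 44.3% of genes and wholly above for 31.5%, so that side of equality alone sets few genes apart. The 3' UTR of HCFC1 holds no 7-base site. The nearest genes on either side were higher than in the control, RENBP with a ratio of 1.24 (1.01 to 1.53) and TMEM187, which begins 519 bases after HCFC1, with 1.45 (1.28 to 1.63). TMEM187 stood at 9.02 FPKM in the SPRTN siRNA library and 6.24 FPKM in the control. The genes closest to HCFC1 in both levels were PPP4R3A, EDC4 and SHCBP1, at log2(FPKM + 1) ratios of -0.38, -0.37 and -0.37. The choice by both levels sets their ratios near that of HCFC1.

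MMACHC (ENSG00000132763, chromosome 1, 45500053 to 45513382, plus strand) went the other way. Its level was 10.5 FPKM in the SPRTN siRNA library (10.0 to 11.0), against 7.41 FPKM in the control (7.07 to 7.77), from 1738 and 1767 reads in libraries of unequal depth. The plain ratio was 1.41 (1.32 to 1.51) and the log2(FPKM + 1) ratio 0.45, also short of 2-fold, at percentile 91.3 of all measured genes. So in this pair of libraries the level of the target was higher where those of THAP11 and HCFC1 were lower. The exons of 2 genes on the opposite strand overlap MMACHC. The use of strand is not given, so reads in the shared bases cannot be told apart, and their part in the MMACHC ratio was not tested. PRDX1, an abundant peroxiredoxin gene, shares 379 bases near the end of MMACHC (7.16% of its exonic bases) and stood at 530 FPKM in the SPRTN siRNA library and 505 FPKM in the control. CCDC163 (listed as CCDC163P in the files) shares 27 bases at its start, at 5.77 and 5.56 FPKM in the SPRTN siRNA and control libraries. Their ratios were 1.05 (1.03 to 1.07) and 1.04 (0.93 to 1.16). Beyond them, TESK2 had a ratio of 0.67 (0.58 to 0.78) and AKR1A1 of 0.89 (0.87 to 0.92). The genes closest to MMACHC in both levels were FRAT2, MED11 and LHPP.

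**Figure D3:**
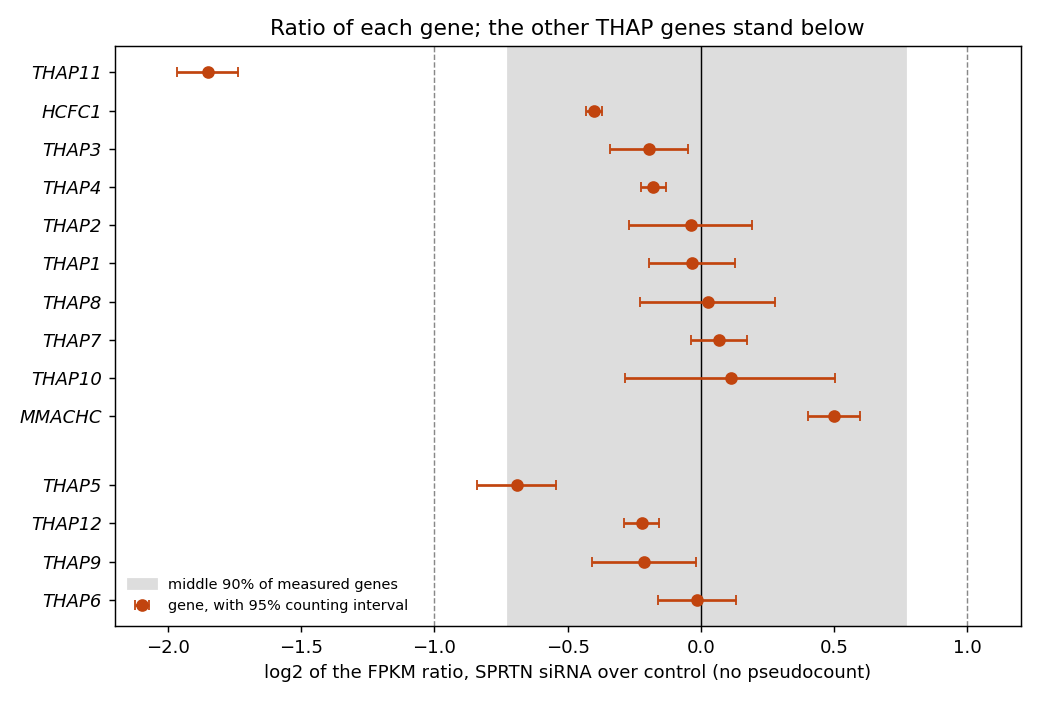
log2 of the plain FPKM ratio of each gene, SPRTN siRNA over control, with 95% counting intervals; the grey band holds the middle 90% of measured genes, from -0.72 to 0.77, and dashed lines mark 2-fold. THAP11 alone lies beyond the band and beyond 2-fold, at -1.85, while MMACHC stands at 0.50 and HCFC1 at -0.40.

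Of the 10 genes, 9 passed the filter on low values, and of these 9 genes 1 was at least 2-fold lower and 0 at least 2-fold higher. The 1 is THAP11, which was chosen for its ratio, and nothing is read from it against the background of 0.788%. For 5 of the 10, THAP1, THAP2, THAP7, THAP8 and THAP10, the counting interval of the ratio held equality.

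The other 7 THAP genes of the named set had plain ratios between 0.87 and 1.08. THAP4, whose product joins a THAP domain to a haem-binding domain, had the highest level of the family, at 84.7 FPKM in the SPRTN siRNA library and 95.9 FPKM in the control. Its ratio was 0.88 (0.85 to 0.91). THAP3, which like THAP11 can bind HCF-1, was at 8.75 FPKM in the SPRTN siRNA library and 10.0 FPKM in the control, a ratio of 0.87 (0.79 to 0.97). THAP7, a repressor that recruits histone deacetylase 3, was at 15.1 FPKM in the SPRTN siRNA library and 14.5 FPKM in the control, a ratio of 1.05 (0.97 to 1.13).

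THAP1, a regulator of endothelial and neural genes whose variants cause a dystonia, stood at 6.22 FPKM in the SPRTN siRNA library and 6.37 FPKM in the control (0.98, 0.87 to 1.09). THAP8 was at 3.08 FPKM in the SPRTN siRNA library and 3.02 FPKM in the control (1.02, 0.85 to 1.21). THAP2 was at 2.08 FPKM in the SPRTN siRNA library and 2.13 FPKM in the control (0.97, 0.83 to 1.14). These 3 genes thus differed by less than their counting error. THAP10 was the lowest and did not pass the filter, at 0.99 FPKM in the SPRTN siRNA library and 0.91 FPKM in the control, from 97 and 129 reads. Its ratio was 1.08 with a wide interval, 0.82 to 1.42, and a difference within that interval is not detectable at this depth.

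Of the 4 family genes outside the named set, THAP5 differed most. THAP5, reported as a regulator of the cell cycle, was at 6.83 FPKM in the SPRTN siRNA library and 11.0 FPKM in the control, a ratio of 0.62 (0.56 to 0.69). It holds no 7-base site. Its exons share 183 bases with DNAJB9, a chaperone gene of the endoplasmic reticulum on the opposite strand, which was at 15.8 FPKM in the SPRTN siRNA library and 29.1 FPKM in the control. The part of such shared reads was not tested. THAP12, listed as PRKRIR in the files, was at 19.2 FPKM in the SPRTN siRNA library and 22.5 FPKM in the control (0.86, 0.82 to 0.90). THAP9, related to a transposase, had a ratio of 0.86 (0.75 to 0.99) and THAP6 of 0.99 (0.89 to 1.10).

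Of the 12 THAP genes, 11 passed the filter, and 9 of these (81.8%) had a log2(FPKM + 1) ratio below 0. Over all measured genes 56.6% had a ratio below 0. Without THAP11 the median of the 10 others was -0.10, against -0.05 over all measured genes, and 5 of the 10 lay below that overall median. Exons shared with other genes also touch THAP2, THAP3, THAP4, THAP6, THAP7, THAP9 and THAP10. For THAP3 the share was 34.8% of its exonic bases, with the chaperone gene DNAJC11 at 49.2 and 46.9 FPKM in the SPRTN siRNA and control libraries. For THAP4 it was 7.53%, with the autophagy protease gene ATG4B at 123 and 93.9 FPKM.

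FPKM is scaled by length, so levels can be ordered across genes. The order does not allow for which transcripts are expressed or for exons shared with other genes. In the SPRTN siRNA library the order from high to low was THAP4, HCFC1, THAP7, MMACHC, THAP3, THAP1, THAP11, THAP8, THAP2 and THAP10. In the control it was THAP4, HCFC1, THAP11, THAP7, THAP3, MMACHC, THAP1, THAP8, THAP2 and THAP10. The counting intervals of neighbours in each order did not overlap. The closest pair was THAP1 and THAP11 in the SPRTN siRNA library, where the interval of THAP1 began at 5.70 FPKM and that of THAP11 ended at 5.69 FPKM.

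As a share of the summed FPKM of the 12 THAP genes, THAP11 made up 3.25% after SPRTN siRNA (rank 8), against 9.71% in the control (rank 3). THAP4 made up 51.9% after SPRTN siRNA, against 48.7% in the control. The sum was 163 FPKM in the SPRTN siRNA library and 197 FPKM in the control, a difference of -33.6 FPKM. THAP11 accounted for -13.8 FPKM of it and THAP4 for -11.2 FPKM.

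**Figure D4:**
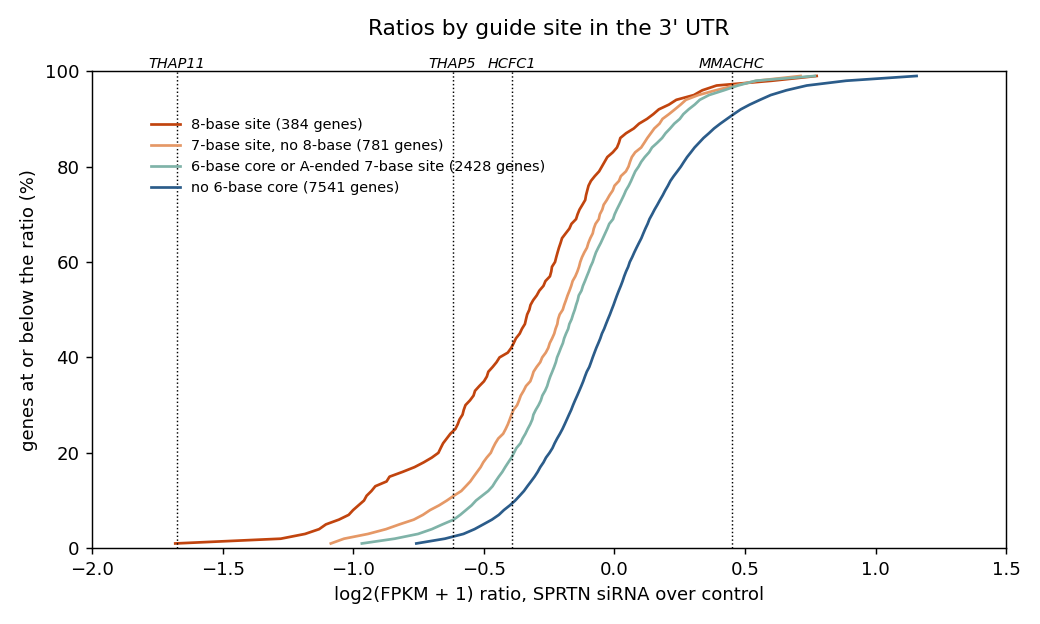
Share of measured genes (%) at or below each log2(FPKM + 1) ratio, by the guide site in the 3' UTR, drawn from percentile 1 to 99; dotted lines mark 4 genes. The medians are -0.33 with the 8-base site and -0.01 without the 6-base core TGGTTA, and THAP11 lies at -1.68 at the lower end of the 8-base curve. The classes were not matched for 3' UTR length or level.

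The ratio of THAP11, which was chosen as low, is set here beside those of all genes with sites. The site classes were not matched for 3' UTR length or for level, and a longer 3' UTR has more room for a match. The part of the sites in the medians below was not tested. The 384 measured genes with the 8-base site CTGGTTAA had a median log2(FPKM + 1) ratio of -0.33, and the 781 with only the 7-base site CTGGTTA had -0.20. Other matches were looked up after these values were seen. TGGTTAA also has 7 bases, but the name 7-base site stands for CTGGTTA alone throughout. Genes with TGGTTAA but no CTGGTTA had a median of -0.21 over 968 genes, those with only the 6-base core TGGTTA had -0.12 over 1460 genes, and the 7541 without the core had -0.01. MMACHC, THAP5 and THAP6 each hold the 6-base core once and no longer match. HCFC1 and the 7 other THAP genes of the named set hold no core.

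Genes that work with HCF-1 were mostly slightly lower. All 41 listed partners passed the filter, and of these 41, 0 were at least 2-fold lower (background 0.788%) and 0 at least 2-fold higher (background 1.51%). Their median log2(FPKM + 1) ratio was -0.17, against -0.05 over all measured genes. Ratios lay below 0 in 35 of 41 (85.4%), against 56.6% of all measured genes, and below the overall median in 31. The lowest were KMT2A, a histone methyltransferase that HCF-1 binds, at 14.7 FPKM in the SPRTN siRNA library and 24.5 FPKM in the control (0.60, 0.58 to 0.63), and SIN3A, a corepressor scaffold, at 0.68 (0.64 to 0.71). KMT2A holds 1 of the 7-base sites, in the 3' UTR of 1 of its 11 coding transcripts. SIN3A has no CTGGTTA but holds 1 TGGTTAA. CREB3, a transcription factor of the endoplasmic reticulum that carries an HCF-1 binding motif, was highest, at 28.4 FPKM in the SPRTN siRNA library and 17.1 FPKM in the control (1.66, 1.58 to 1.75). OGT, the enzyme that glycosylates and cleaves HCF-1, followed at 95.4 FPKM in the SPRTN siRNA library and 74.0 FPKM in the control (1.29, 1.26 to 1.32).

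ZNF143, which shares promoters with THAP11, was at 10.1 FPKM in the SPRTN siRNA library and 12.0 FPKM in the control, a ratio of 0.84 (0.77 to 0.93). The HCFC1 paralogue HCFC2, which holds a 7-base site, was at 0.70 (0.60 to 0.82), and HCFC1R1, a regulator of HCF-1 location, at 1.28 (1.17 to 1.40). SETD1A and WDR5, of the methyltransferase complexes that HCF-1 binds, had ratios of 0.99 (0.95 to 1.04) and 0.98 (0.95 to 1.01), both holding equality. Over the 36 partners without CTGGTTA the median was -0.16, and some of them, such as SIN3A, hold TGGTTAA.

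Among the other genes of cobalamin uptake and use, 13 of 19 passed the filter. Of these 13 genes 0 were at least 2-fold lower (background 0.788%) and 0 at least 2-fold higher (background 1.51%), and their median was -0.09, against -0.05 over all measured genes. MTR, methionine synthase, was lowest, at 6.15 FPKM in the SPRTN siRNA library and 12.0 FPKM in the control (0.51, 0.49 to 0.53). Its 6337-base 3' UTR holds the 8-base site shown above and 1 further 7-base site. MMADHC, which directs cobalamin after MMACHC has processed it, was at 51.2 FPKM in the SPRTN siRNA library and 66.6 FPKM in the control (0.77, 0.74 to 0.80). MCEE, the epimerase on the route to methylmalonyl-CoA mutase, was highest, at 53.3 FPKM in the SPRTN siRNA library and 29.4 FPKM in the control (1.81, 1.71 to 1.93). LMBRD1, which helps release cobalamin from lysosomes, had a ratio of 1.30 (1.22 to 1.39).

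Of the known partners and targets of THAP1 and THAP7 with PRDX1, all 7 passed the filter, 0 were at least 2-fold changed in either direction (background 2.29%), and the median was -0.23, against -0.05 over all measured genes. RRM1, a subunit of ribonucleotide reductase and a known THAP1 target, was lowest at 40.3 FPKM in the SPRTN siRNA library and 68.5 FPKM in the control (0.59, 0.57 to 0.61). The 3' UTR of RRM1 has no CTGGTTA but holds 1 TGGTTAA. NCOR1, a corepressor that THAP7 binds, followed at 0.74 (0.72 to 0.76). PRDX1 was the 1 gene above 0, while 56.6% of all measured genes lay below 0.

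**Figure D5:**
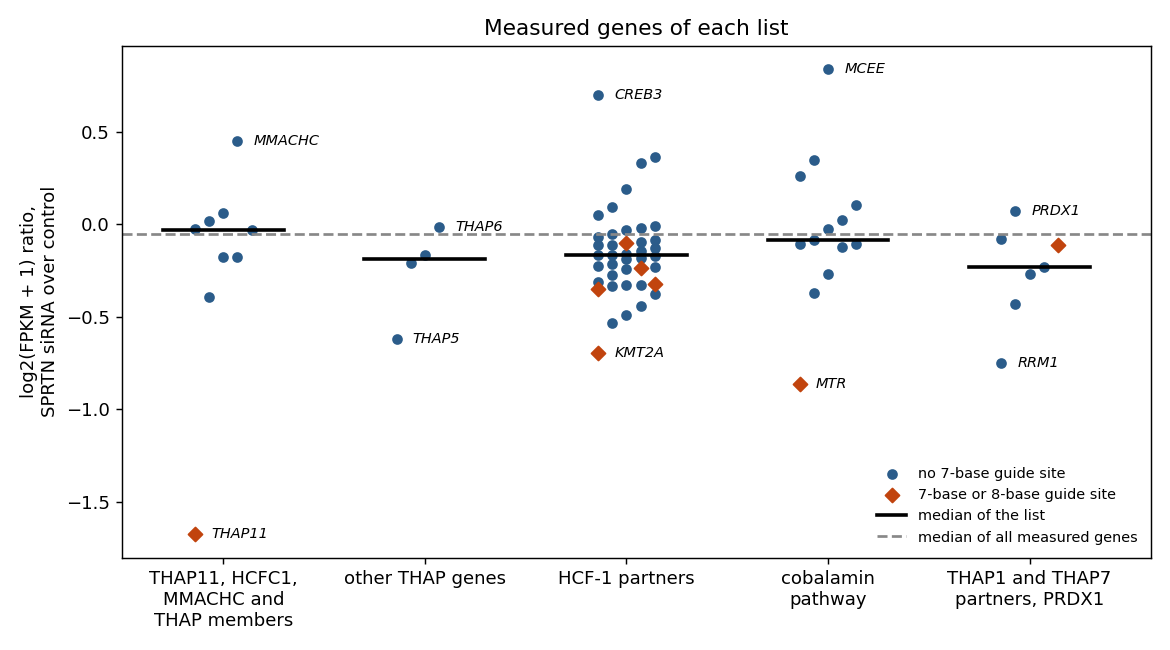
log2(FPKM + 1) ratio, SPRTN siRNA over control, of the measured genes of each list. Diamonds mark genes holding the guide site CTGGTTA, bars the list medians and a dashed line the median of all measured genes. The lowest points of 3 lists, THAP11, KMT2A and MTR, are diamonds, while those of the other lists, THAP5 and RRM1, are not. THAP11 was chosen for its low ratio.

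Promoters bound by THAP11, ZNF143 and HCF-1 are known to carry a shared motif, called here the THAP11-ZNF143 motif. A 12-base form of it with 2 free bases was searched on both strands in 250 bases before to 50 after each RefSeq gene start, and its letters are seen in capitals in the windows of MTR, HCFC1R1 and KANSL1. It was found for 586 of 27305 genes (2.15%). Of the 10 genes, 8 had a promoter sequence (all but HCFC1 and THAP1) and 0 held it. MMACHC holds ACTACGCATCCC, which differs from it at 1 fixed base, and a looser form with that base free too, chosen after this was seen, was found for 2.73% of genes. The windows of MTR, HCFC1R1 and KANSL1 are shown because these 3 genes of the lists above carry the motif, and that of MMACHC because it is the known target, 5′ to 3′ on the strand of the gene with the match in capitals, from RefSeq (GRCh38.p14).
MMACHC, chr1:45500168-45500197, plus strand: aggaaacgaACTACGCATCCCaagatgcat
MTR, chr1:236795142-236795171, plus strand: gggagcgggACTACATCTCCCagagagccc
HCFC1R1, chr16:3024299-3024328, minus strand: atctccagaACTACAAGTCCCagagtgctc
KANSL1, chr17:46194169-46194198, minus strand: ttcacgaaaACTACAGTTCCCagcgggccc

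KANSL1, a scaffold of a histone acetyltransferase complex and 1 of the HCF-1 partners, had a ratio of 0.88 (0.84 to 0.92). ASXL1, a partner of the histone deubiquitinase BAP1, carries the looser form alone and had a ratio of 0.77 (0.74 to 0.79).

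The 454 measured genes with the THAP11-ZNF143 motif had a median log2(FPKM + 1) ratio of -0.01, against -0.07 for the 9118 measured genes whose promoter lacks it. Of these 454 genes, 6 were at least 2-fold lower (1.32%) and 5 at least 2-fold higher (1.10%), against 0.669% and 1.25% of genes without it. Of the 63 measured genes with a stricter form that has no free base, 3 were at least 2-fold lower (4.76%) and 0 at least 2-fold higher, against 0.673% and 1.25% of genes without that form, and their median was -0.03. Of those 3 lower genes, NFATC3 holds a 7-base guide site and TRAK2 the 8-base guide site. With 1 library per group the differences between genes with and without either form were not tested. Of the 454 genes, 415 had no CTGGTTA found, which includes genes without a 3' UTR to search. Their median was 0.01, with 2 at least 2-fold lower. Where the mean was 5 FPKM or more, the lowest were PSMD10, a proteasome assembly factor (log2 ratio -2.21), STMN1, a microtubule regulator (-1.90), and NFATC3, a calcium-regulated transcription factor (-1.19). PSMD10 holds the 8-base guide site and NFATC3 a 7-base site. STMN1 has no CTGGTTA but holds 1 TGGTTAA. The highest were FBXL19-AS1, an antisense RNA (1.54), PNPLA6, a lysophospholipase (1.42), and ZMAT5, a zinc finger protein of the minor spliceosome (1.12). PNPLA6 stood at 74.2 FPKM in the SPRTN siRNA library and 27.0 FPKM in the control.

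In the authors' deposited table, THAP11 is called lower, at a log2 fold change of -1.85 with the adjusted p listed as 0. The table calls 3.32% of 25035 genes lower and 9.20% higher. In the same deposited table of the authors the other 9 genes are not called, and HCFC1 has a log2 fold change of -0.40 (adjusted p of 1.05e-148, method not stated) and MMACHC 0.50 (1.02e-24). That table gives 65.8% of its genes an adjusted p below 0.05, from 1 library against 1. With 1 library per group no spread between cultures can be seen, and the method is not stated. These p-values are therefore given as listed and nothing is read from them.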

How the data were processed

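RNA of HepG2 cells was measured in 2 libraries, and per the labels' treatment field 1 is the SPRTN siRNA group and 1 the control siRNA group. The authors deposited FPKM per gene and a second table with a length-scaled coverage signal, the authors' log2 fold change, p-value and adjusted p-value. Per the submitters' processing notes the genome was GRCh38.p13 and edgeR is named, without its role. The aligner, the counter, the use of strand and the method of the p-values are left out of the labels and file headers, and so not given in the sources used here. Columns were matched to the samples by the siRNA prefix and the table's title. The title mentions means per row without saying over what, so several cultures may lie behind 1 column.

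The members and gene lists were chosen with earlier results of these data known. The main value was the difference of log2(FPKM + 1), SPRTN siRNA minus control. Genes counted as measured had a mean of 1 FPKM or more. On this scale the change of low genes is understated. With 1 library per group no test was possible, so only the size of 2-fold was used to count genes. Whole reads were recovered as FPKM times the mean GENCODE release 29 transcript length over the worth of 1 read. Lengths were found for 94.1% of genes, and the recovered values up to 20 reads were whole, within 0.05, for 93.3% of genes in the SPRTN siRNA library and for 93.9% in the control library. For genes with several annotated transcripts the recovered number is approximate. Plain FPKM ratios carry 95% intervals (exact Clopper-Pearson, from how a gene's reads split between libraries), and levels carry exact Poisson intervals. Both cover counting error only. In simulated reads of the SPRTN siRNA comparison on 13101 genes, 95.3% of intervals held the true ratio. Guide sites were searched in annotated 3' UTRs of GENCODE protein-coding transcripts. The promoter motif was searched in RefSeq promoter sequences (GRCh38.p14). The text names all members, the other THAP genes, and from each list other than the cell type markers the genes past 2-fold and those farthest from 0. Of the markers it names only some, among them those past 2-fold. It also names the genes nearest in level to THAP11, MMACHC and HCFC1, their annotated neighbours, and the extremes of the motif set. A gene that this rule names is not reported here. ZNF143, HCFC2, HCFC1R1, SETD1A, WDR5, KANSL1 and ASXL1 were named after their values were seen. So were DNAJB9, DNAJC11 and ATG4B, which share exons with members. Alternatives were another pseudocount and none, other filters on low values, other scalings, recovered reads and other motifs. Python 3.11.15, pandas 2.3.3 and scipy 1.17.1 were used.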

Additional observations from a re-analysis of the deposited data

How the results depend on the processing

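No paired analysis was possible because each group has 1 library, and for the same reason no replicate could be left out. The THAP11 log2 ratio of -1.68 was -1.83 with a pseudocount of 0.1, -1.85 with none and -1.85 with recovered reads, since a pseudocount draws low values together. Centring on the median gene and median-of-ratios scaling gave HCFC1 -0.34 and -0.33 (main value -0.39), and THAP4 -0.12 and -0.12 (main value -0.18). Against 199 genes at least 2-fold higher over all measured genes, there were 368 with a pseudocount of 0.1, 398 with none, 386 with recovered reads and 86 where the mean was 5 FPKM or more. Against 104 lower genes, there were 230, 254 and 244 under the first 3 of these. Higher genes were 65.7% of the calls, against 74.2% when centred, 75.4% with median-of-ratios scaling and 51.5% under the filter at 5 FPKM. Of all 18 results, the 109 other alternative values moved by less than the member's counting interval, the members' median interval or 1.5 times the count. THAP2, THAP8 and THAP10 have no value under that filter. Depth limits THAP10, with 97 and 129 reads in the SPRTN siRNA and control libraries.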
